A study of Mus musculus with 8 samples.

Results

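The lineage transcription factors of the mammary gland that were followed here were 10 genes, namely Gata3, Elf5, Elf3, Ehf, Trp63, Bcl11a, Bcl11b, Tbx3, Runx1 and Tox, of 38293 gene identifiers in the bulk count tables. They were listed by name as luminal and basal lineage factors, with earlier results of these data known. All 10 were found in the bulk tables. Gata3, Elf5 and Ehf lie on chromosome 2, Elf3 on chromosome 1, Tox on chromosome 4, Tbx3 on chromosome 5, Bcl11a on chromosome 11, Bcl11b on chromosome 12, and Trp63 and Runx1 on chromosome 16. The samples were organoids of PyMT mammary tumors, in which the MMTV promoter, active in mammary epithelium, drives the polyoma middle T antigen. The same mice carried MMTV-Cre and an Ecadherin-mCFP reporter, so control and SOX4KO lines shared these alleles. Bulk RNA-sequencing covered 2 control lines (WT1 and WT3) and 3 SOX4KO lines (H7, M4 and H4), and plate-based single-cell RNA-sequencing covered 1 control line (GR17) and 2 SOX4KO lines (GR18 and GR19). SOX4KO lines were made with CRISPR/Cas9, and all lines were harvested 4 days after splitting to single cells, in medium with B27 and 12.5 ng/ml FGF2. Every line was a clone, the labels do not tie a bulk line to a single-cell line, and p-values measure the spread between these clones.

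The mammary epithelium consists of an inner luminal layer, which senses hormones or makes milk and expresses keratins 8 and 18, and an outer basal layer, which contracts and expresses keratins 5 and 14. Gata3, a zinc finger factor, is required for luminal differentiation, and the ETS factors Elf5, Elf3 and Ehf are restricted to epithelia, with Elf5 acting in the prolactin-driven alveolar lineage. Trp63 encodes p63, the p53 relative that maintains basal cells and their adhesion genes. Bcl11a and Bcl11b are related zinc finger factors known from mammary progenitors and from lymphocytes, Tbx3 is a T-box factor of early mammary development, Runx1 binds DNA together with Cbfb, and Tox is an HMG-box factor best known from developing T cells.

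Promoter sequence was read for the members for which a RefSeq promoter (GRCm38.p6) was given, which held 8 promoters of 6 members (Gata3, Elf5, Elf3, Bcl11a, Bcl11b and Runx1). The motifs searched were chosen because SOX4 is the factor that was removed and because members themselves bind the others. The 250 bases before the transcription start are printed 5′ to 3′ for Bcl11b, which fell in SOX4KO lines, for Elf3, which varied least between lines, and for both starts of Elf5, which spanned 9.55 times between SOX4KO lines. Capitals mark a SOX motif (ACAAAG or ACAATG) or an ETS core (GGAA) on either strand. The Bcl11b promoter lies at chr12:108003415-108003664 on the minus strand, that of Elf3 at chr1:135258473-135258722 on the minus strand, and those of Elf5 at chr2:103411848-103412097 and chr2:103423818-103424067 on the plus strand.
Bcl11b: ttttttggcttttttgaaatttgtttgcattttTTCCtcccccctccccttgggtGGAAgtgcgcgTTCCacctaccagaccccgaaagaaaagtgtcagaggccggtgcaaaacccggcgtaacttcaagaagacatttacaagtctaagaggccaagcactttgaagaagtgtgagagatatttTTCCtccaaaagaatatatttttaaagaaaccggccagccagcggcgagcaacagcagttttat
Elf3: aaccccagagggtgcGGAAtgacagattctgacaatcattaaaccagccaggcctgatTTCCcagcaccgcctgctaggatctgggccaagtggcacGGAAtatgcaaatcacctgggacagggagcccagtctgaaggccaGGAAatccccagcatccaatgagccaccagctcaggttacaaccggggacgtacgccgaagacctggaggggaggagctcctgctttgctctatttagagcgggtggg
Elf5, first start: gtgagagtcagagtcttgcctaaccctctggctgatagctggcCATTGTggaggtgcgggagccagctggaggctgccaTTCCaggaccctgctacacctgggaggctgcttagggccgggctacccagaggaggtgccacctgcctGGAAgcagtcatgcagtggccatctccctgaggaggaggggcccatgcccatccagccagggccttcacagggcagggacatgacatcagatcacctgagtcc
Elf5, second start: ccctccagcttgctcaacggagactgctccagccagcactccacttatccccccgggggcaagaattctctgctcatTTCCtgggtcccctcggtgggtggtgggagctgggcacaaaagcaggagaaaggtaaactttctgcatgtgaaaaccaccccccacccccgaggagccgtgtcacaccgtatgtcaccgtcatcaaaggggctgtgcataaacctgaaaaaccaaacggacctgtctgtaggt
The SOX motif ACAAAG was in none of the 8 member promoters, against 16.5% of 32851 mouse promoters of the same length. The SOX motif ACAATG was in 1 of the 8, the first start of Elf5, against 10.7% of all promoters. The ETS core was in all 8, against 93.4% of all promoters, and neither the GATA motif AGATAA (9.99% of all promoters) nor the RUNX motif TGTGGT (14% of all promoters) was in any of them. No base was shared between motifs in the 8 promoters. These matches are a description of the letters in these windows.

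Reads counted on genes numbered 3050323 to 4678497 per bulk library, and the single-cell libraries held 362 to 369 wells with at least 1000 UMIs (unique molecular identifiers) and 7714119 to 8296953 UMIs. Mammary epithelial markers were present in every library, with Epcam at 593 to 865 CPM (counts scaled to library size, normalised with TMM factors) in bulk. Of 12 lymphocyte markers 8 to 11 were at 0 in each bulk line, and their summed level was 0.48 to 1.81 CPM. Summed endothelial markers reached 1.04 to 2.52 CPM and myeloid markers 1.39 to 14.3 CPM (highest in H7, from Cd68), while the sum of fibroblast markers, 58.7 to 104 CPM, came mostly from Pdgfra. Sox4 RNA was 295 and 374 CPM in WT1 and WT3 and 199, 179 and 299 CPM in H7, M4 and H4 (log2 fold change -0.57, SE 0.25, edgeR adjusted p = 0.277). An edit that shifts the reading frame need not lower the RNA, so this level does not test the knockout. The luminal over basal keratin ratio, as the log2 of summed Krt8 and Krt18 over summed Krt5 and Krt14, was 1.35 and 1.97 in the control lines and 0.47, -0.19 and 1.55 in H7, M4 and H4, so it overlapped between groups.

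In bulk organoids, 3 of the 10 members fell in SOX4KO lines and none rose. The ETS factor Ehf fell 2.51-fold from a high level, while Bcl11b and Tox, both expressed at a low level in control lines, were nearly lost. Trp63 was 1.98 times as high in SOX4KO lines without passing the test, and Gata3, Elf3, Tbx3 and Runx1 were not called. Elf5 and Bcl11a were each low in a single SOX4KO line. The test was edgeR's quasi-likelihood test across 11682 genes at an adjusted p under 0.1, in which 2.17% of genes were called lower, 4.1% higher and 6.27% in either direction. The groups did not overlap for 4 members, with Ehf, Bcl11b and Tox lower and Trp63 higher in every SOX4KO line, against 36.9% of all genes (17.9% lower and 19% higher). Bcl11b and Tox passed the filter on low counts only through the control lines, where they were high. The members were also chosen with earlier results of these data known. Their counts beside these shares are therefore only a description.

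**Figure D1:**
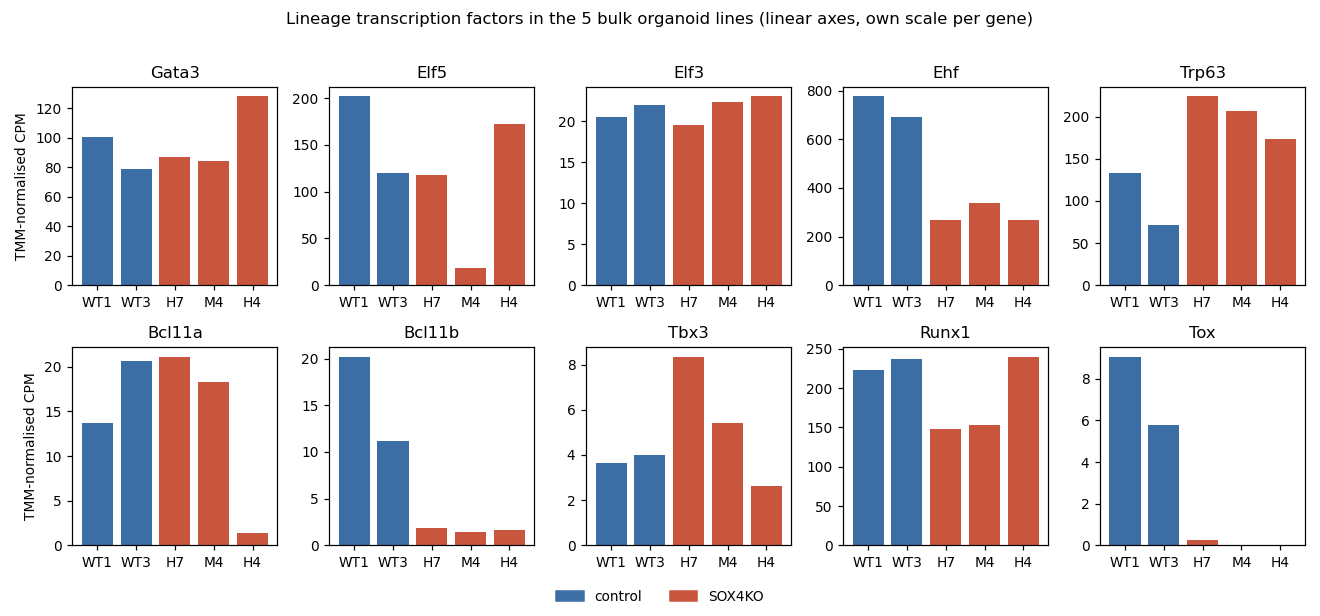
TMM-normalised CPM (vertical axis, linear and scaled per gene) of the 10 members in each bulk line, with 1 bar per line, in blue for the control lines WT1 and WT3 and in red for the SOX4KO lines H7, M4 and H4. Ehf, Bcl11b and Tox were lower in all SOX4KO lines than in both control lines, Trp63 was higher in all of them, Elf5 was low in M4 and Bcl11a was low in H4.

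Among the luminal and ETS factors, Ehf was the most abundant, with 777 and 692 CPM in the control lines WT1 and WT3 against 268, 339 and 270 CPM in the SOX4KO lines H7, M4 and H4. The groups did not overlap, and the SOX4KO lines differed by at most 1.27 times among themselves. The log2 fold change was -1.33 (SE 0.19, edgeR adjusted p = 0.0146). With 1 control line left the adjusted p was 0.121 (without WT1) and 0.138 (without WT3), so the call needed both control lines. In bulk RNA, fewer luminal cells and less Ehf RNA per cell cannot be told apart.

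Elf5, the alveolar ETS factor, was 202 and 120 CPM in the control lines, and 118, 18.0 and 172 CPM in H7, M4 and H4. H7 and H4 thus lay within or just below the control range, whereas M4 was low, and the SOX4KO lines spanned 9.55 times. The log2 fold change of -0.63 (SE 0.67) was not called (edgeR adjusted p = 0.693). Elf3, another epithelial ETS factor, varied least, from 19.6 CPM in H7 to 23.0 in H4, with control lines at 20.5 and 21.9 (log2 fold change 0.03, SE 0.21). Gata3 was 100 and 78.7 CPM in WT1 and WT3 and 86.6, 84.2 and 128 in H7, M4 and H4, and its groups overlapped (log2 fold change 0.16, SE 0.23, edgeR adjusted p = 0.786).

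Trp63, the basal regulator, was 134 and 70.9 CPM in WT1 and WT3, below its 224, 207 and 173 CPM in H7, M4 and H4. The control lines differed by 1.88 times from each other, and the SOX4KO lines by 1.29 times. The log2 difference of 0.98 (SE 0.28) did not pass the threshold (edgeR adjusted p = 0.107), and the groups did not overlap. It passed in DESeq2 (adjusted p = 0.0196), without a filter on low counts (edgeR adjusted p = 0.000551) and without H4 (edgeR adjusted p = 0.0901). The keratin ratio given above was lowest in M4 and H7, and its part in the values of Trp63 and Ehf was not tested.

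Bcl11b, a zinc finger factor, was counted 78 times in WT1 and 56 times in WT3, against 7, 4 and 7 reads in H7, M4 and H4. This corresponds to 20.2 and 11.2 CPM in the control lines and 1.83, 1.44 and 1.68 CPM in the SOX4KO lines, which did not overlap. The log2 fold change was -3.20 (SE 0.41, edgeR adjusted p = 0.0125), and the ratio of summed CPM was 9.04 in favour of control, with a 95% counting interval of 5.51 to 15.7. Without WT1 the edgeR adjusted p was 0.101. Its relative Bcl11a behaved otherwise, with 13.7 and 20.7 CPM in the control lines and 21.1, 18.4 and 1.44 CPM in H7, M4 and H4. Only H4 was low in Bcl11a, at 14.7 times below the highest SOX4KO line, and the log2 fold change of -0.37 (SE 0.74) turned to 0.20 without H4.

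Tox, the HMG-box factor, had 35 reads in WT1 and 29 in WT3, 1 read in H7, and 0 reads in M4 and H4. The control lines stood at 9.06 and 5.78 CPM, and every SOX4KO line lay below 0.3 CPM. Summed over lines, the level was 77.7 times higher in control lines, with a 95% counting interval of 13.5 to 3116, and the test called it lower (edgeR adjusted p = 0.0131). Bcl11b and Tox are both known from T cells, and Cd3e, Cd3g, Cd4, Cd8a and Cd2 were at 0 in all 5 bulk lines. Lck was the highest lymphocyte marker, at 0.48 to 1.81 CPM, below Tox and Bcl11b in both control lines. In WT3 8 of the 12 lymphocyte markers were at 0, and those other than Lck summed to 0.597 CPM. The source of the Bcl11b and Tox RNA was not tested.

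Tbx3, the T-box factor, was counted 14 and 20 times in the control lines and 32, 15 and 11 times in H7, M4 and H4, with the SOX4KO lines on both sides of the control lines (log2 fold change 0.51, SE 0.52, edgeR adjusted p = 0.680). Runx1 was 223 and 237 CPM in WT1 and WT3 and 148, 154 and 240 CPM in H7, M4 and H4. H7 and M4 were lower than both control lines while H4 was level with them, and the log2 fold change of -0.35 (SE 0.24) was not called. Its partner Cbfb had a log2 fold change of -0.21 (SE 0.20).

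**Figure D2:**
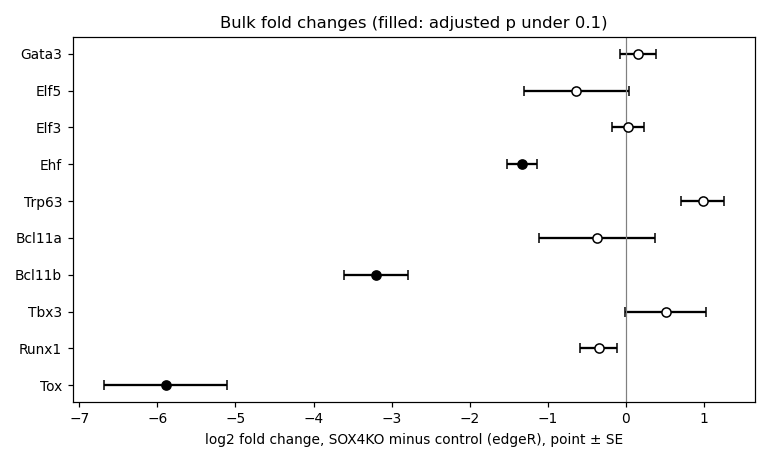
Log2 fold change of SOX4KO over control in bulk (horizontal axis) for each of the 10 members, as points with standard errors from edgeR, with filled points for an adjusted p under 0.1. Ehf at -1.33, Bcl11b at -3.20 and Tox at -5.90 are filled, Trp63 lies at 0.98 and the other 6 have open points, with long error bars for Elf5 and Bcl11a.

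Levels of different members were compared per kilobase of gene model. In control lines Ehf had 132 CPM per kilobase, followed by Elf5 at 27.3, Gata3 at 22.5, Runx1 at 19.1, Trp63 at 12.2 and Elf3 at 9.55. Bcl11b (1.93), Bcl11a (1.31), Tox (0.975) and Tbx3 (0.574) were all below 2. Elf5, Gata3 and Runx1 were neighbours whose ranges over the 5 lines overlapped. In SOX4KO lines Ehf remained first at 52.4 CPM per kilobase, followed by Gata3 and then Trp63 (24.0).

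The other genes of these pathways were taken from fixed lists, which were also chosen with earlier results of these data known. Of 12 tested relatives of the members, 1 fell, the ETS factor Spdef (log2 fold change -3.49, edgeR adjusted p = 0.0457), and the median over the list was -0.13 against 0.01 over all genes. Trp53 and Trp73, the relatives of Trp63, had log2 fold changes of -0.27 and -0.47 and were not called. Against 4.1% of all genes called higher and 2.17% lower, 3 of 29 other lineage regulators rose and 6 fell, with a median of -0.12. The genes that rose included the estrogen receptor Esr1 (1.64) and the basal zinc finger factor Snai2 (1.25), along with Mef2c (1.14), which is named although it lies outside the 6 of lowest adjusted p. Those that fell included Xbp1, a factor of secretory cells (-1.45), Myb (-1.48), Cited1 (-1.44) and the epithelial factor Grhl1 (-0.95), while Foxa1 at -0.85 was not called (edgeR adjusted p = 0.110).

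Genes listed as targets of p63 moved mostly one way, and a part of Trp63 in this was not tested. The list does not separate genes that p63 raises from genes that it lowers. Of 17 tested, 7 rose and none fell, 15 had a positive log2 fold change, and the median was 0.80 against 0.01 over all genes. Of all 11682 genes, 4.1% were called higher and 5941 had a positive log2 fold change. The integrin Itga3 rose by 1.59 on the log2 scale (edgeR adjusted p = 0.0131), the cadherin Fat2 by 1.31, the Notch ligand Jag2 by 0.92, Ddit4 by 0.69, Sfn by 1.49 and Igfbp3 by 2.26. The keratin targets Krt5 and Krt14 were not called, with 1.47 and 0.33. Of 7 tested genes of the Elf5 and prolactin pathway, the casein Csn1s1 rose by 4.62 (1.81 and 0.996 CPM in control lines against 44.9, 22.7 and 34.7 in SOX4KO lines) and the milk fat gene Btn1a1 fell by 2.85, and the other 5 were not called.

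**Figure D3:**
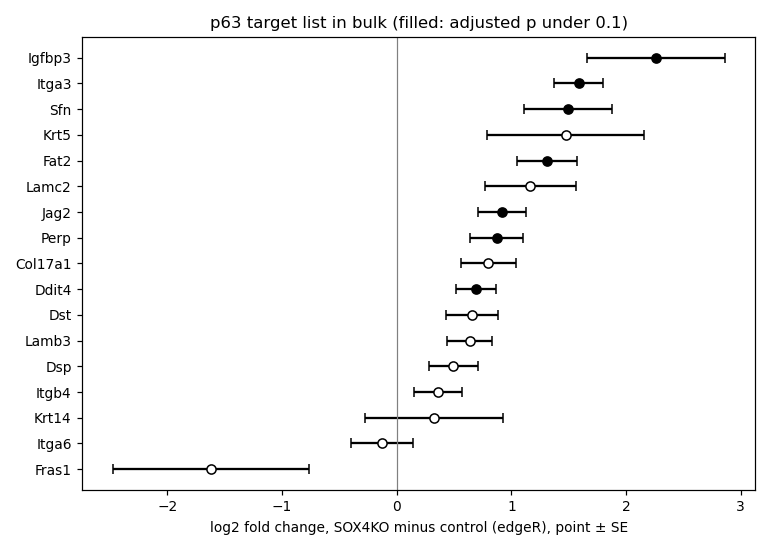
Log2 fold change of SOX4KO over control in bulk (horizontal axis) for the 17 tested genes of the p63 target list, as points with standard errors from edgeR, with filled points for an adjusted p under 0.1. Of the 17 points 15 lie above 0 and 7 are filled, with Igfbp3 highest at 2.26.

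Single cells were then ordered by keratin, using the log2 ratio of Krt8 and Krt18 over Krt5 and Krt14 UMIs with 1 added to each sum, so that the low end is basal and the high end luminal. The cells of each library were split on this axis into 3 groups of equal size, and the summed UMIs of the outer groups, called the luminal and the basal end, were compared with the library as a block. The luminal end began at -0.90 in GR17, -0.12 in GR18 and 1.32 in GR19. The basal end reached up to -2.77, -2.45 and -1.08. An end thus held cells at unlike places on the axis in different libraries. Of the 8 members with enough UMIs, Elf5, Elf3 and Ehf were higher at the luminal end, and Trp63, Bcl11a, Bcl11b and Runx1 were higher at the basal end. Of 9898 genes 8.78% were called luminal and 9.26% basal. Gata3 was not called, and Tbx3 and Tox had too few UMIs. The median UMIs of a cell rose from the basal to the luminal end, from 19370 to 22207 in GR17, from 17992 to 22771 in GR18 and from 19548.5 to 23793 in GR19. With every cell thinned to 5000 UMIs, Elf5, Elf3, Ehf, Trp63 and Runx1 were still called, while Bcl11a and Bcl11b no longer passed the filter on low counts.

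**Figure D4:**
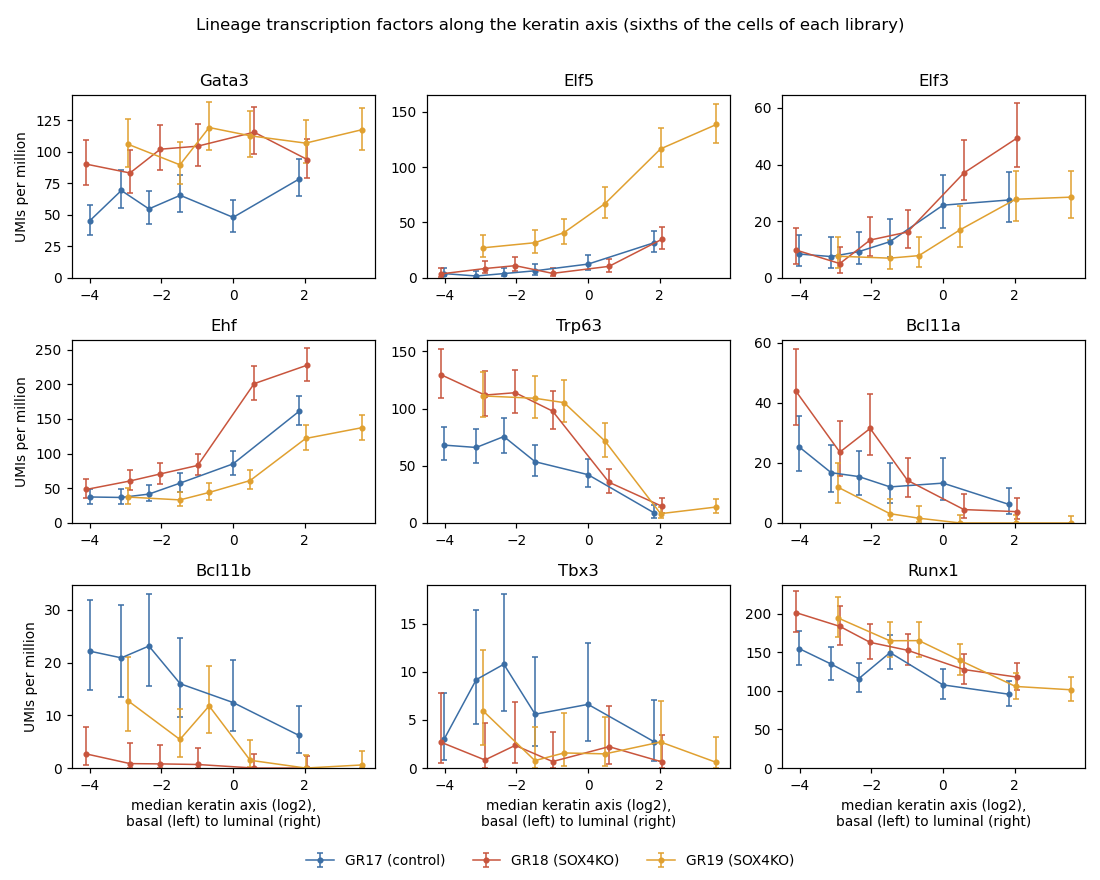
UMI counts as CPM (vertical axis, linear and scaled per gene) of 9 members against the median keratin axis (horizontal axis, log2, basal on the left) of sixths of the cells of each library, with exact 95% Poisson intervals, in blue for GR17 (control), red for GR18 and yellow for GR19 (SOX4KO). Elf5, Elf3 and Ehf climb toward the luminal end, Trp63, Bcl11a, Bcl11b and Runx1 decline, and Gata3 stays nearly level, with the SOX4KO libraries above GR17.

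With UMIs scaled to CPM, Ehf had 37.1 CPM at the basal end and 127 at the luminal end of GR17, 54.6 and 215 in GR18, and 35.2 and 130 in GR19. The luminal end was thus higher in every library, by a log2 difference of 1.93 (SE 0.10, edgeR adjusted p = 1.6e-05). Elf3 behaved alike, with 7.99 and 26.7 CPM in GR17, 7.37 and 43.8 in GR18 and 7.28 and 28.2 in GR19 (log2 difference 2.14, SE 0.22, edgeR adjusted p = 0.000376). Elf5 rose from 2.80 to 22.9 CPM in GR17, from 6.07 to 23.8 in GR18 and from 29.5 to 128 in GR19. All 3 libraries were higher at the luminal end, and the log2 difference between ends was 2.26 (SE 0.19, edgeR adjusted p = 0.000125). Gata3 differed by 0.26 only (SE 0.10, edgeR adjusted p = 0.121), with 56.7 and 64.6 CPM in GR17, 86.7 and 104 in GR18 and 97.5 and 113 in GR19.

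Trp63 fell from 67.1 CPM at the basal end to 24.0 at the luminal end of GR17, from 120 to 24.1 in GR18 and from 110 to 11.3 in GR19. The luminal ends of GR17 and GR18 had like values, and the basal ends of both SOX4KO libraries had more than that of GR17. These ends lay at unlike places on the axis. In cells over 0 on the axis Trp63 was 15.1 CPM in GR17, 21.6 in GR18 and 26.1 in GR19. Between the luminal and the basal end the log2 difference was -2.29 (SE 0.26, edgeR adjusted p = 0.000658). Bcl11a went from 21.2 to 9.39 CPM in GR17, from 33.4 to 4.07 in GR18 and from 7.28 to 0 in GR19 (log2 difference -2.24, SE 0.48, edgeR adjusted p = 0.0148). This rested on 53 and 25 UMIs in GR17, 77 and 12 in GR18 and 18 and 0 in GR19, and the edgeR adjusted p was 0.131 without GR18. Bcl11b had 54 UMIs at the basal and 24 at the luminal end of GR17, 4 and 0 in GR18 and 22 and 1 in GR19 (log2 difference -2.01, SE 0.55, edgeR adjusted p = 0.0430). Without GR19 the edgeR adjusted p was 0.137, and without GR17 the gene had too few UMIs to be tested. Runx1 sloped less, from 145 to 101 CPM in GR17, from 192 to 122 in GR18 and from 179 to 103 in GR19 (log2 difference -0.61, SE 0.09, edgeR adjusted p = 0.00293).

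The lists sorted along the axis as well. Of 14 tested p63 target genes, Krt5 and Krt14 left out because they define the axis, 13 were called basal and none luminal, with a median log2 difference of -1.15, and Trp73 was lower at the luminal end by a log2 difference of -5.18. Of 6 tested Elf5 and prolactin genes 5 were called luminal and none basal, with a median of 2.30. Of the lineage regulators that were called in bulk, Xbp1 (1.85), Cited1 (4.67), Grhl1 (1.77), Hey1 (0.85) and Myb (0.68) were called luminal, and Snai2 (-3.24) and Mef2c (-1.39) were called basal. Tfcp2l1, which fell in bulk, was not called between the ends (1.03, edgeR adjusted p = 0.249), and Esr1 had too few UMIs to be tested. Hey1, Mef2c and Tfcp2l1 are named to complete this count. Over all genes the median was 0.

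Between whole single-cell libraries there was 1 control line, so no test was made, and the 95% Poisson intervals below cover counting error only. Of the 5 members with at least 20 CPM on average, none was at least 2-fold apart from GR17 in both SOX4KO libraries, against 1.92% of 6303 genes higher and 0.317% lower. All 5 were higher than GR17 in both SOX4KO libraries, which held for 38.8% of genes. The 20 CPM minimum shaped this count, since Elf5 passed it only through GR19 (10.5, 13.0 and 75.4 CPM in GR17, GR18 and GR19). Under the minimum, Bcl11b, Tbx3 and Tox were lower in both SOX4KO libraries, Elf3 was higher in both and Bcl11a was split. The keratin axis shifted as well, with a median of -1.93 in GR17, -1.38 in GR18 and -0.13 in GR19, and 24.9%, 30.6% and 48.6% of cells above 0. The SOX4KO libraries thus lay nearer the luminal end than GR17. Bulk went the other way, with the keratin ratio of H7 and M4 below both control lines and that of H4 between them. The cause of this difference was not tested.

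**Figure D5:**
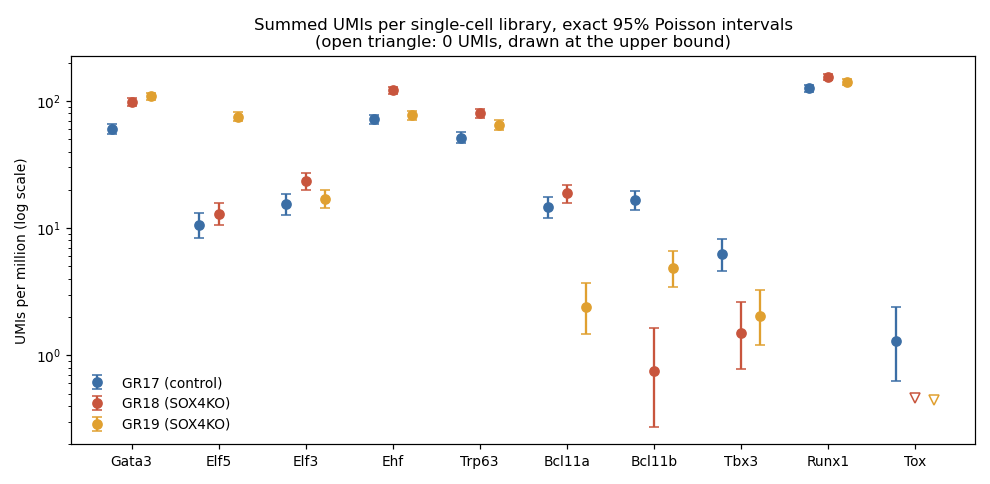
UMI counts as CPM, summed over the cells of each single-cell library (vertical axis, log scale) for the 10 members, with exact 95% Poisson intervals, in blue for GR17 (control), red for GR18 and yellow for GR19 (SOX4KO). Elf5 stands out in GR19, Bcl11a is low in GR19, Bcl11b and Tbx3 are lower in both SOX4KO libraries, and Tox has open triangles in both because it had 0 UMIs there.

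Gata3 had 60.5 CPM in GR17 (95% interval 55.2 to 66.3), 98.8 in GR18 and 109 in GR19, which is 1.63 and 1.80 times the control. Within cells of the same range of the axis both SOX4KO libraries stayed above GR17, with 55.8, 90.8 and 107 CPM in cells under -2, 57.7, 103 and 102 from -2 to 0, and 72.2, 103 and 114 in cells over 0. Ehf stood at 72.1 in GR17, 122 in GR18 and 77.4 in GR19, so that neither SOX4KO library was below the control, whereas bulk SOX4KO lines were all below theirs. Among cells over 0 on the axis, Ehf was 147 in GR17, 218 in GR18 and 112 in GR19, with GR18 above and GR19 below the control. Elf5 was 10.5 in GR17, 13.0 in GR18 and 75.4 in GR19, and among cells over 0 it was 26.8, 25.3 and 112 CPM. Elf3 was 15.4, 23.3 and 17.0.

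Trp63 had 51.5 CPM in GR17, 79.8 in GR18 and 65.0 in GR19, higher in both SOX4KO libraries, as in bulk. In cells under -2 on the axis it was 70.5, 117 and 109, and from -2 to 0 it was 53.0, 100 and 110. In cells over 0 it was 15.1, 21.6 and 26.1. Runx1 was 126, 154 and 141 CPM. Bcl11a was 14.6 in GR17 and 18.7 in GR18 but 2.41 in GR19, so 1 SOX4KO line was low here too, as H4 was in bulk.

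Bcl11b was lower in both SOX4KO libraries, at 0.749 CPM in GR18 (6 UMIs) and 4.82 in GR19 (40 UMIs) against 16.6 in GR17 (128 UMIs). The ratio of control over SOX4KO was 22.2 (95% interval 9.90 to 61.5) for GR18 and 3.44 (2.4 to 5.04) for GR19, and the mean of 7.39 was under the 20 CPM needed to be counted. In cells under -2 on the axis Bcl11b was 21.9 in GR17, 1.69 in GR18 and 12.2 in GR19. Tbx3 had 48 UMIs in GR17, 12 in GR18 and 17 in GR19, or 6.22, 1.5 and 2.05 CPM, a direction that bulk did not show. Tox had 10 UMIs in GR17 and 0 in GR18 and GR19, where its row was not listed and was taken as 0. Its level in GR17 was 3.46 times a floor of 3 UMIs in GR18 and 3.59 times that floor in GR19, without the counting error of GR17. The 95% interval was 0.622 to 2.38 CPM in GR17, with upper bounds of 0.461 in GR18 and 0.445 in GR19.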

How the data were processed

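Bulk libraries were made with a directional kit from RNA of whole organoids, and the authors deposited raw htseq-count counts per Ensembl gene, without normalization. The deposited single-cell tables hold raw UMI counts, with 1 column for each of 384 wells. The submitters' processing notes name STAR 2.4.2a and the builds NCBIM37 and mm9 without roles. Lines without a gene, 71.6% to 83.9% of each bulk table's total, were left out. Symbols came from a GRCm38 annotation.

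The tests used edgeR 4.0.16 under R 4.3.3, with filterByExpr, TMM factors and glmQLFTest, and Benjamini-Hochberg adjustment over all genes tested, two-sided, called under 0.1. Each SE is the size of the fold change over the root of F. The ends of the keratin axis were fitted with the library as a block, since both ends come from 1 library. Wells with at least 1000 UMIs were kept, with 348 well numbers kept in all 3 plates, a property of the plate layout. Library sums were compared as CPM with exact Poisson intervals, and for 2-fold calls 1 was added before log2. No doublet caller was run, and leaving out wells over 2 times the median UMIs changed no member's call. Intervals cover counting error only. DESeq2 1.42.0 was an alternative. Steps were tested on simulated data.

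All members were named, with, from each further list, up to 6 called genes of lowest adjusted p, and Esr1, Foxa1, Cbfb, Trp53, Trp73, Sox4 and the keratins. Members and lists were chosen with earlier results of these data known.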

Additional observations from a re-analysis of the deposited data

How the results depend on the processing

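No paired analysis was possible because the bulk lines are independent clones and their labels give no replicate number that control and SOX4KO lines share. Without the replicate block, the keratin comparison called 2 members basal and 571 genes in all, and Elf5 (edgeR adjusted p = 0.306), Bcl11a (0.291) and Bcl11b (0.627) lost their calls. Thinning left 2 members basal and 762 genes, and DESeq2 called 866 genes. In bulk, 1 member was called higher by DESeq2 and without a filter on low counts, Trp63 in both cases, and without a filter Elf5 was called lower (edgeR adjusted p = 0.0418). All genes called numbered 733, but 1686 without a filter and 354 at an adjusted p under 0.05. At that threshold 6 relatives and regulators in place of 10, and 4 p63 and prolactin genes in place of 9, were called, and 16 of the latter without a filter. With a minimum of 5 CPM, 1 member, Bcl11b, was past 2-fold in both SOX4KO libraries. Within ranges of the keratin axis, chosen after seeing the data, the mean log2 difference of both SOX4KO libraries was -0.057 under -2 and -0.23 from -2 to 0 for Elf3, -0.0092 from -2 to 0 for Ehf, and 0.046 under -2 for Bcl11a. In each case GR18 and GR19 lay on opposite sides of GR17, as with Ehf at 60.5, 93.5 and 38.5 CPM and Elf3 at 13.1, 17.6 and 6.87 CPM in GR17, GR18 and GR19 from -2 to 0, and Bcl11a at 18.6, 32.2 and 11.3 CPM under -2. The cause of these shifts was not tested.

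With each library left out in turn, members lower in bulk ranged from 1 (without WT1) to 3, and members higher from 0 to 1. All genes called in bulk ranged from 56 (without WT3; 130 without WT1) to 1006, relatives and regulators from 0 to 11, and p63 and prolactin genes from 2 to 10 (2 without either control line, 5 without H7). A lone control line was assumed to vary like the SOX4KO lines. The bulk log2 fold change ranged from -0.062 to 0.34 for Gata3, from -0.019 to 0.093 for Elf3 and from -0.91 to 0.20 for Bcl11a. Between keratin ends, 1026 (without GR18; 1119 without GR19) to 2409 genes were called, with 3 members basal and 3 to 4 luminal, the fourth being Gata3 without GR17 (edgeR adjusted p = 0.0984). The log2 difference of Bcl11a between libraries ranged from -2.20 to 0.33, and members past 2-fold from 0 to 1, Elf5, without GR18.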

Other observations

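Some genes of the fixed lists were read in the single-cell libraries as well, where 1 control line allows no test. The casein Csn1s1 had 50.04 CPM in GR17, 689 in GR18 and 706 in GR19, and the casein Csn3 had 101, 391 and 1754. Other genes of the Elf5 and prolactin list went either way between GR18 and GR19. Wfdc18 was at 30.3, 72.4 and 37.4 and Csn2 at 0, 7.37 and 0.36 CPM in GR17, GR18 and GR19. Prlr, at 48.0, 99.4 and 134 CPM, and Cish, at 2.72, 4.12 and 5.42 CPM, were highest in GR19. Foxa1 was 196 in GR17, 77.2 in GR18 and 86.4 in GR19, and Myb was 33.2, 4.87 and 11.4, both lower in the SOX4KO libraries. Xbp1, lower in bulk SOX4KO lines, was 354 in GR17, 540 in GR18 and 447 in GR19. Of the p63 targets named as rising in bulk, Igfbp3 was 20.6 in GR17, 53.7 in GR18 and 47.2 in GR19. Fat2 (34.5, 42.1 and 41.1) and Ddit4 (179, 324 and 219) were also higher in both SOX4KO libraries. Sfn (282, 328 and 281) was higher in GR18 only, whereas Itga3 (371, 373 and 298) and Jag2 (19.96, 16.4 and 15.8) stood level with or below GR17.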
